A study of Homo sapiens with 6 samples.

Results

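Cullins are the scaffolds of the largest family of ubiquitin ligases, and the 10 genes described here encode 7 cullins (*CUL1*, *CUL2*, *CUL3*, *CUL4A*, *CUL4B*, *CUL5* and *CUL7*), the RING subunits *RBX1* and *RNF7*, and the modifier *NEDD8*. They were taken by gene name from a count table of 60623 genes. *RBX1* entered the set because its RNA and its protein ratio moved in different directions in the study. Its response to treatment is therefore described without a test, while the other 9 genes were tested. Those 9 were also chosen with earlier results of these data known. RNA-Seq was performed on TC28a2 cells, an immortalized human chondrocyte line, treated for 24 hours with 2 μM mocetinostat, an inhibitor of class I histone deacetylases, or with its solvent DMSO. There were 3 samples per treatment, which the study describes as independent experiments, and the comparison addressed which genes mocetinostat regulates. All samples came from 1 immortalized line, which limits it as a model of cartilage. In bulk RNA of this kind, fewer cells expressing a gene and less RNA per cell cannot be told apart.

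A cullin-RING ligase is modular. The cullin holds a RING subunit at its C-terminal end, which recruits the ubiquitin-charged E2 enzyme, and an adaptor with a substrate receptor at its N-terminal end. Covalent attachment of NEDD8 to the cullin switches the ligase on, and the COP9 signalosome removes it. RBX1 serves most cullins, whereas RNF7, also called RBX2, pairs mainly with CUL5.

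The promoters of 4 genes are shown because the results turn on these pairs of related genes, the RING subunits and the CUL4 paralogs. Each is the 250 bases before the annotated start in RefSeq (GRCh38.p14), read 5′ to 3′ on the strand of the gene. Capitals mark the matches, on either strand, to 6 motifs: GGGCGG (SP/KLF box), CACGTG (E-box), TGACGTCA (CRE), CCGGAAG (ETS), the NRF1 motif and CCAAT. The windows lie at chr22:40951128-40951377 (plus strand) for *RBX1*, chr3:141738048-141738297 (plus strand) for *RNF7*, chr13:113209363-113209612 (plus strand) for *CUL4A* and chrX:120560963-120561212 (minus strand) for *CUL4B*.
RBX1: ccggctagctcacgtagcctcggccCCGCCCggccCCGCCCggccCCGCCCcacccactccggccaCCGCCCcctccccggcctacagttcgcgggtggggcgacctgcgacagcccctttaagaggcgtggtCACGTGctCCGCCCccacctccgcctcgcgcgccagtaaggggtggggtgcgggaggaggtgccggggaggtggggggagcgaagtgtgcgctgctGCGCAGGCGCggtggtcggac
RNF7: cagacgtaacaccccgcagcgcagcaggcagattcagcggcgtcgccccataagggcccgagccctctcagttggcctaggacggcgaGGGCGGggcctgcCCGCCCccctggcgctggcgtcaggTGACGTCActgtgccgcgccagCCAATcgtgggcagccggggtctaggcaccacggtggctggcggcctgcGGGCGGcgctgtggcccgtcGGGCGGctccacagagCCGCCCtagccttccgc
CUL4A: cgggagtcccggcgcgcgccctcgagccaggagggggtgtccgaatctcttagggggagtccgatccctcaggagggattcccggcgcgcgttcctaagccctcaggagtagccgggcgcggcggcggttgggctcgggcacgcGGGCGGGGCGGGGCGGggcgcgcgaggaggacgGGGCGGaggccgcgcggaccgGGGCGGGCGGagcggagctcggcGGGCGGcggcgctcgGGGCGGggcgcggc
CUL4B: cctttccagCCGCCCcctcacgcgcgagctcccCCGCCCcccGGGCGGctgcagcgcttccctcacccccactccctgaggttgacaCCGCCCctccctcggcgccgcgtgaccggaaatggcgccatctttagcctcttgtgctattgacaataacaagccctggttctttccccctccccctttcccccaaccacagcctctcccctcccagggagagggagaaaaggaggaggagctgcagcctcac

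A window was found for 9 of the 10 genes. No window was printed for *CUL7*. GGGCGG was present in 9 of 9 windows, against 42.6% of 35116 RefSeq promoters of the same length. The *CUL4A* window held 8 matches, some of which overlap, and the *CUL4B* window held 4. CACGTG (6.34% of promoters) and the NRF1 motif (5.07%) were found in the *RBX1* window among the 9, TGACGTCA (1.65%) in that of *RNF7*, CCGGAAG (8.52%) in that of *NEDD8*, and CCAAT (32.0%) in those of *RNF7* and *NEDD8*. G and C made up 80.8% of the *CUL4A* window and 66.4% of the *CUL4B* window, and 76.8% and 74.0% of those of *RBX1* and *RNF7*, where the median of all promoters was 58.0%. The *CUL5* window was the lowest of the 9, at 57.2%. GGGCGG consists of G and C alone, and the share of 42.6% was not matched for this composition. These matches describe letters and were not tested for binding.

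The DMSO libraries held between 4873426 and 11031132 counts and the mocetinostat libraries between 1619344 and 5089542, so values in treated cells rest on fewer counts. Of all genes, 13966 passed the filter on low counts, including the 10 members. Among 13 chondrocyte markers, 8 had more than 3 counts in every DMSO sample and 10 in every mocetinostat sample, and their summed level was 127 to 148 CPM (counts per library scaled by edgeR's TMM method) with DMSO and 271 to 313 CPM with mocetinostat. Fibroblast markers summed to 4610 to 5560 CPM and 4090 to 4470 CPM, with 7 and 6 of 8 above 3 counts. Epithelial markers (2 and 5 of 7) summed to 900.0 to 1080 and 1940 to 1990 CPM, endothelial markers (3 and 4 of 6) to 5.61 to 8.12 and 41.5 to 48.4 CPM, and blood markers (0 and 1 of 6) to 1.62 to 2.29 and 5.35 to 11.2 CPM, with *CD3E* and *HBB* at 0 in every sample. The part of these shifts in the results that follow was not tested.

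RNA of these 7 cullin scaffolds was lower after mocetinostat, most for *CUL1* and *CUL4A* and least for *CUL4B*. However, *CUL2*, *CUL3* and *CUL4B* were higher when *GAPDH* set the scale. Of the 9 tested genes, 8 were lower at an adjusted p under 0.05 in edgeR, against 31.4% of all genes tested. Because the set was chosen with earlier results of these data known, this count is a description of the set. Of the 9, 2 were also more than 1 log2 unit lower, which is the threshold for a call, against 8.18% of all genes. With TMM scaling in edgeR, none of the 9 was called higher, against 20.2% of all genes. None was higher at an adjusted p under 0.05, against 32.9% of all genes, or at an unadjusted p under 0.05. In DESeq2, 0 were called higher. In edgeR with *GAPDH* as the scale, *CUL4B* was higher (adjusted p = 0.00528). The median log2 fold change of the 9 was -0.59, and that of all genes was 0.0. The 3 mocetinostat values lay below the 3 DMSO values for 7 of 9 genes, as for 32.8% of all genes. With *GAPDH* as the scale, *CUL2*, *CUL3*, *CUL4B* and *NEDD8* turned to higher values, since *GAPDH*, a glycolytic enzyme used as a reference, was itself lower by this measure (log2 fold change -0.53 ± 0.06, SE, adjusted p = 2.58e-12) and this scale moved the median of all genes by 0.54.

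**Figure D1:**
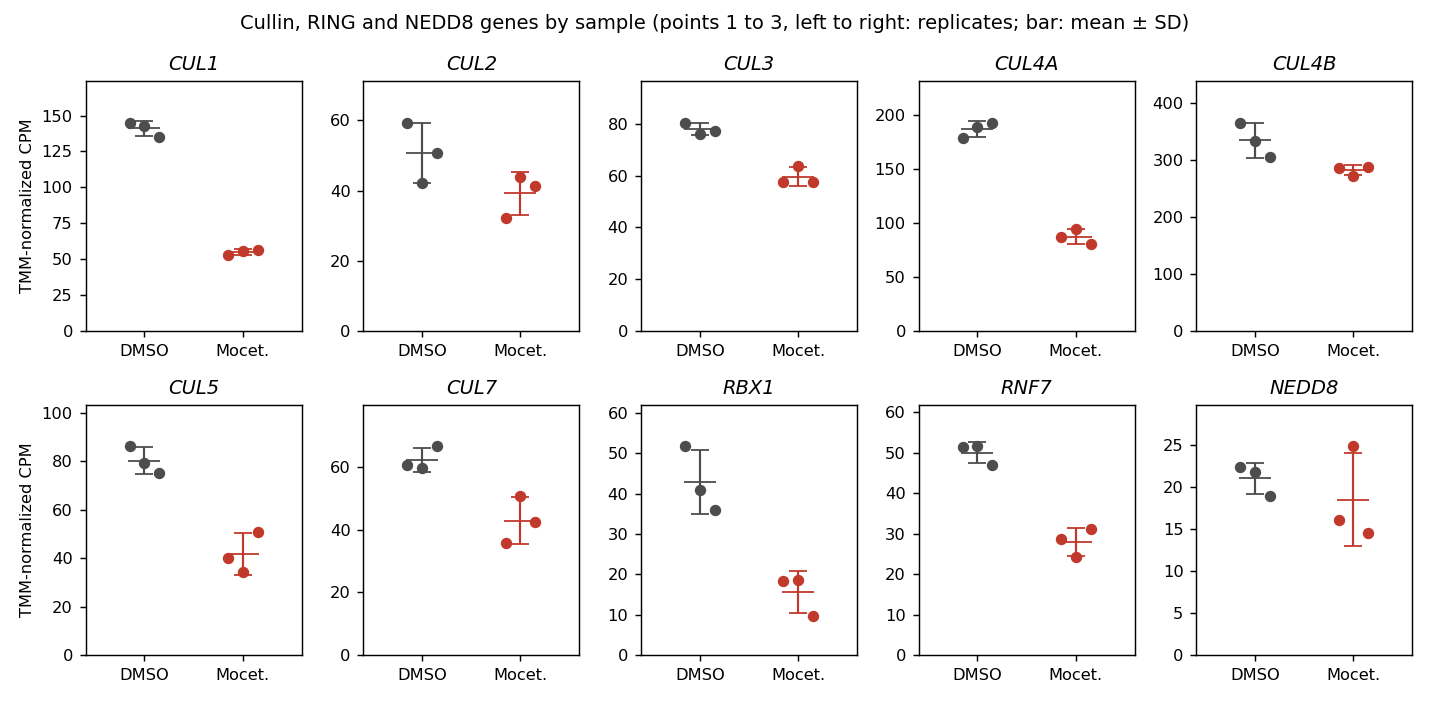
TMM-normalized CPM (y axis, from 0) of each gene in the 3 DMSO and 3 mocetinostat (Mocet.) samples, with bars for mean ± SD. The groups overlap for CUL2 and NEDD8. With GAPDH as the scale, CUL2, CUL3, CUL4B and NEDD8 were higher instead of lower.

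*CUL1*, the scaffold of the SCF ligases that use F-box proteins, lies at chr7:148697914-148801110 (GRCh38, plus strand). Its level was 145, 143 and 135 CPM with DMSO and 52.7, 55.8 and 56.8 CPM with mocetinostat. The groups were far apart and each was tight. The log2 fold change was -1.36 ± 0.11 (SE, n = 3 per group, edgeR adjusted p = 5.85e-18), and the fitted level was 38.9% of that with DMSO. Exons of genes on the opposite strand cover 11.1% of its exonic bases, and the strand setting of the counting was not given in the sources used here.

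*CUL4A* and *CUL4B* are paralogs that build ligases with the adaptor DDB1. *CUL4A* (chr13:113208193-113267108, plus strand) measured 179, 189 and 193 CPM with DMSO and 87.4, 94.2 and 80.8 CPM with mocetinostat. Every treated sample was below every control. The log2 fold change was -1.10 ± 0.10 (SE, n = 3 per group, edgeR adjusted p = 4.29e-16). *CUL4B* (chrX:120505920-120604074, minus strand) measured 366, 334 and 305 CPM with DMSO and 287, 273 and 288 CPM with mocetinostat. The groups did not overlap but nearly met. Its log2 fold change of -0.24 ± 0.08 (SE, adjusted p = 0.00657) became 0.29 (adjusted p = 0.00528) with *GAPDH* as the scale. It did not pass when libraries were thinned to the smallest total (adjusted p = 0.0787) or when 10 counts were required of each sample (adjusted p = 0.0695).

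The ratio of *CUL4A* to *CUL4B* counts within a library does not depend on scaling. It was 0.49, 0.565 and 0.634 with DMSO and 0.305, 0.345 and 0.28 with mocetinostat, so the paralogs shifted toward *CUL4B* in every treated sample. The difference in mean log2 ratio was -0.86 (SD 0.19 with DMSO and 0.15 with mocetinostat). The exact two-sided permutation test gave p = 0.1, the smallest that 3 samples against 3 allow. Among the counts of the 7 cullins, *CUL4B* took 35.8% ± 1.87 (SD, n = 3) with DMSO and 46.5% ± 2.04 with mocetinostat, while *CUL1* took 15.1% ± 0.331 and 9.04% ± 0.143 and *CUL4A* took 20.1% ± 1.56 and 14.4% ± 1.16. The share of *CUL3* was 8.34% ± 0.174 and 9.79% ± 0.529. These shares were not tested. The ratio of *CUL1* to *CUL3*, both of which pair with RBX1, was 1.8, 1.87 and 1.75 with DMSO and 0.917, 0.874 and 0.986 with mocetinostat, with no overlap.

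**Figure D2:**
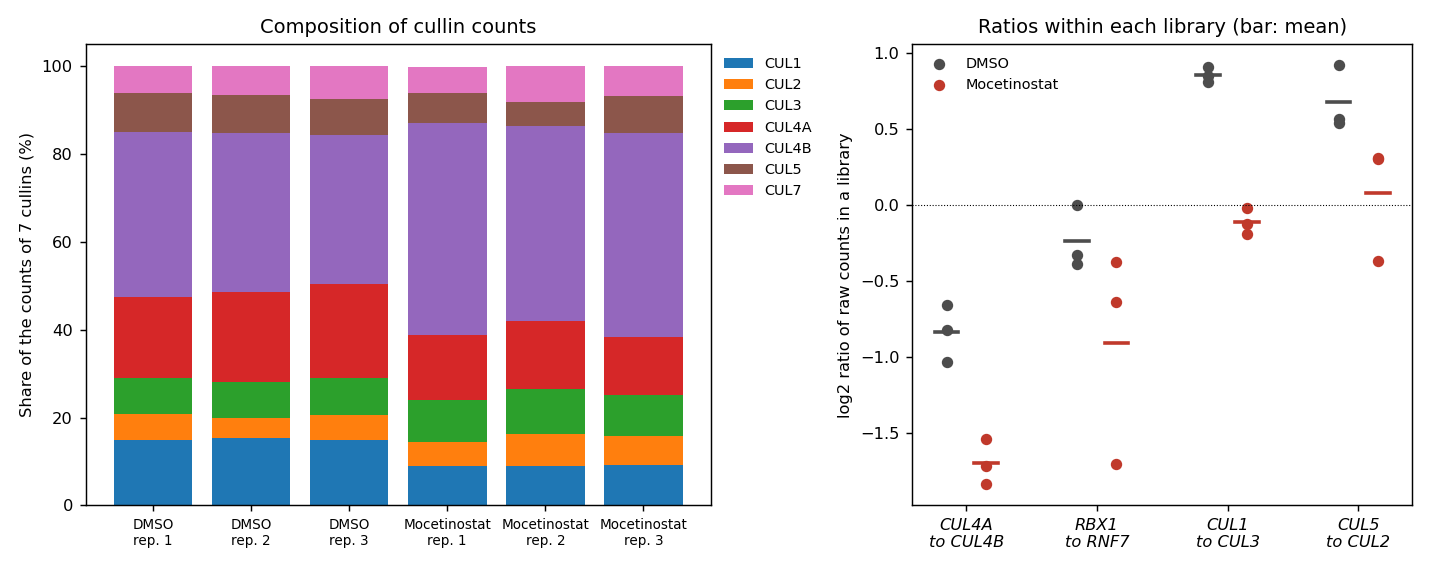
Left, the share (%) of each cullin in the raw counts of the 7 cullins in each library. Right, log2 ratios of raw counts within each library, with points for samples and bars for means. The CUL4A to CUL4B ratio lies between 0.49 and 0.634 in DMSO and between 0.28 and 0.345 in mocetinostat samples, while the RBX1 to RNF7 ratios overlap.

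*CUL3*, the scaffold for BTB-domain receptors such as KEAP1 (chr2:224470150-224585397, minus strand), measured 80.4, 76.2 and 77.1 CPM with DMSO and 57.5, 63.8 and 57.6 CPM with mocetinostat. The groups did not overlap. Its log2 fold change was -0.40 ± 0.12 (SE, adjusted p = 0.00282) and turned to 0.14 with *GAPDH* as the scale. With every library thinned to the smallest total it was -0.21 (adjusted p = 0.206). *CUL2*, the scaffold of the VHL ligase (chr10:35008504-35127006, minus strand), measured 59.3, 42.1 and 50.8 CPM with DMSO and 32.3, 44 and 41.4 CPM with mocetinostat. These groups overlapped, since the second treated sample exceeded the second control. The log2 fold change was -0.43 ± 0.14 (SE, adjusted p = 0.00694), which became -0.32 without DMSO replicate 1 (adjusted p = 0.0535) and -0.28 without mocetinostat replicate 1 (adjusted p = 0.158), and DESeq2 gave an adjusted p of 0.067.

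*CUL5*, which works with SOCS-box receptors and RNF7 (chr11:108008898-108107761, plus strand), measured 86.2, 79.5 and 75.2 CPM with DMSO and 40.0, 34.1 and 51.0 CPM with mocetinostat. The groups were well separated, with more spread among treated samples. Its log2 fold change was -0.94 ± 0.13 (SE, adjusted p = 3.39e-09), just short of a call. It passed at -1.01 without DMSO replicate 3 and at -1.10 without mocetinostat replicate 3. In the other direction, it was -0.76 when thinned to the smallest total and -0.40 (adjusted p = 0.0106) with *GAPDH* as the scale. Opposite-strand exons cover 13.29% of its exonic bases. *CUL7*, a scaffold that forms a complex with FBXW8, OBSL1 and CCDC8 (chr6:43037617-43053943, minus strand), measured 60.8, 59.6 and 66.6 CPM with DMSO and 35.7, 50.8 and 42.3 CPM with mocetinostat. The groups did not overlap, and the log2 fold change was -0.59 ± 0.14 (SE, adjusted p = 0.000122). Scaled to *GAPDH* it was -0.05 (adjusted p = 0.758). Exons of another gene on the same strand cover 15.74% of the exonic bases of *CUL7*, and opposite-strand exons cover 6.17%.

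*RBX1*, the RING subunit of most cullin ligases (chr22:40951347-40973309, plus strand), was read 571, 197 and 244 times in the DMSO samples and 93, 30 and 23 times after mocetinostat. Its level was 51.7, 41.0 and 36.0 CPM with DMSO and 18.4, 18.6 and 9.53 CPM with mocetinostat. The groups did not overlap, and mocetinostat replicate 3 stood below the other treated samples. Mean levels were 42.9 ± 8.01 and 15.5 ± 5.19 CPM (SD, n = 3), and the log2 fold change of -1.45 ± 0.18 (SE) is the most negative of the 10 genes. *CUL1* had the lower value without mocetinostat replicate 3 (-1.40, against -1.24 for *RBX1*) and without DMSO replicate 1 (-1.36, against -1.30). The value of *RBX1* was -0.91 with *GAPDH* as the scale. No test is given, because the direction of this RNA was a reason for its choice.

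*RNF7*, the other RING subunit (chr3:141738249-141747560, plus strand), measured 51.5, 51.6 and 47.0 CPM with DMSO and 28.7, 24.2 and 31.1 CPM with mocetinostat. The groups did not overlap. The log2 fold change was -0.82 ± 0.15 (SE, adjusted p = 1.4e-06), and -0.28 (adjusted p = 0.0987) with *GAPDH* as the scale. The ratio of *RBX1* to *RNF7* counts was 1.0, 0.794 and 0.765 with DMSO and 0.641, 0.769 and 0.307 with mocetinostat. These ratios overlapped, so the larger fall of *RBX1* was not separated from that of *RNF7* by these samples.

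*NEDD8*, the ubiquitin-like protein that is attached to cullins (chr14:24216857-24232367, minus strand), measured 22.4, 21.7 and 18.9 CPM with DMSO and 16.1, 24.8 and 14.5 CPM with mocetinostat. The highest value of all belonged to a treated sample. The log2 fold change was -0.25 ± 0.20 (SE, adjusted p = 0.27), which did not pass the test. The treated samples held 81, 40 and 35 counts. Without the filter on low counts, which moved the median of all genes by -0.25, the value was -0.51 (adjusted p = 0.0477). This was the only 1 of 14 alternatives in which *NEDD8* passed. Thinned to the smallest total it was -0.05 (adjusted p = 0.884), with *GAPDH* as the scale 0.29 (adjusted p = 0.216), and in DESeq2 -0.26 (adjusted p = 0.494). A readthrough gene on the same strand, *NEDD8-MDP1*, had 0 counts in every sample. Its exons cover 12.89% of the exonic bases of *NEDD8*. How reads shared by both genes were counted was not given in the sources used here. The 0 counts therefore do not show that the readthrough RNA was absent, and *NEDD8* may have been undercounted.

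Levels were compared between genes per kilobase of the canonical transcript (CPM per kb). With DMSO the order was led by *CUL4B* (56.7 ± 5.18 CPM per kb, SD), *CUL1* (44.7 ± 1.75), *RBX1* (36.7 ± 6.85), *NEDD8* (34.1 ± 3.05) and *CUL4A* (32.2 ± 1.21), of which *CUL1*, *RBX1*, *NEDD8* and *CUL4A* overlapped with their neighbours. *RNF7* followed at 18.8 ± 0.984, and *CUL5*, *CUL2*, *CUL3* and *CUL7* lay together between 11.5 and 13.0 CPM per kb. With mocetinostat *CUL4B* (47.8 ± 1.42) and *NEDD8* (30.0 ± 9.0) stood first, and *CUL1* (17.5 ± 0.669), *CUL4A* (15 ± 1.15) and *RBX1* (13.3 ± 4.44) came next. The summed level of the 7 cullins was 182 ± 7.54 CPM per kb with DMSO and 113 ± 3.16 with mocetinostat. The order depends on the transcript chosen. With the length of all exons combined, *CUL1* ranked 1 and *CUL4B* ranked 6 with DMSO. On that length *CUL4B* ranked 4 with mocetinostat, and *NEDD8* ranked 9 in both groups.

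The 5 genes whose log2 CPM followed *RBX1* most closely over the 6 samples, among 10875 genes, were *RPL22* (Pearson's r = 0.9969), *TTC27* (0.9964), *ZNF655* (0.9961), *PWP1* (0.9958) and *ZNF721* (0.9957). The points share the treatment, and 3.79% of genes had an r above 0.95. *RPL22*, a ribosomal protein gene, had a mean of 61.6 CPM with DMSO and measured 26.6, 29.7 and 16.2 CPM with mocetinostat. Like *RBX1*, it was lowest in mocetinostat replicate 3. It was chosen by its correlation with *RBX1* over these same samples, so the shared low value is no separate observation. Among the members, r with *RBX1* ranged from 0.61 for *CUL2* to 0.94 for *CUL3*.

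The other genes of the cullin machinery comprised 45 tested genes in 7 lists. These lists, and those of receptors below, were chosen with earlier results of these data known, so their counts are descriptions. Of these, 26 were lower and 8 higher at an adjusted p under 0.05, against 31.4% and 32.9% of all genes, and 11 did not pass. With *GAPDH* as the scale the balance turned, to 7 lower and 17 higher. Their median log2 fold change was -0.40, and 0.14 on that scale. Calls past 1 log2 unit were made for 3 lower genes and 1 higher gene, against 8.18% and 20.2% of all genes.

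The COP9 signalosome removes NEDD8 from cullins. Of its 10 subunits, 9 were lower at an adjusted p under 0.05, against 31.4% of all genes, with a median log2 fold change of -0.69. With *GAPDH* as the scale 4 were lower, with a median of -0.15. *COPS5*, which carries the catalytic site, measured 61.7, 65.0 and 57.8 CPM with DMSO and 21.4, 24.2 and 29.4 CPM with mocetinostat. The log2 fold change was -1.33 ± 0.15 (SE, adjusted p = 1.93e-12). *COPS2* was also called lower, at -1.13 ± 0.11 (SE, adjusted p = 2.3e-14). *COPS9* had a value of -0.15 ± 0.20 (adjusted p = 0.538).

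The enzymes that attach NEDD8 were lower for 5 and higher for 1 of 9 genes at an adjusted p under 0.05, against 31.4% and 32.9% of all genes. Their median of -0.40 became 0.14 with *GAPDH* as the scale. *NAE1*, a subunit of the NEDD8-activating enzyme, had a log2 fold change of -0.86 ± 0.12 (SE, adjusted p = 8.01e-10). Its partner *UBA3* had a value of -0.23 ± 0.13 (adjusted p = 0.124). *UBE2M*, the NEDD8 E2 for most cullins, was lower at -0.89 ± 0.12 (adjusted p = 2.69e-09). *UBE2F*, the NEDD8 E2 that acts with RNF7 on CUL5, had a value of -0.57 ± 0.27 (adjusted p = 0.0635).

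Among 6 exchange factors and regulators, *CAND1*, which swaps receptors on unmodified cullins, was lower at -0.54 ± 0.09 (SE, adjusted p = 3.03e-07). On the *GAPDH* scale, 0 of the 6 were lower and 5 higher at an adjusted p under 0.05. The median of the 6 was 0.17, and 0.71 on that scale. *SENP8*, the protease that matures NEDD8, was called higher at 1.5 ± 0.48 (adjusted p = 0.00499). It rests on few counts, namely 39, 3 and 6 in controls and 22, 15 and 10 in treated cells, and without mocetinostat replicate 2 it was 1.13 (adjusted p = 0.0744). Without DMSO replicate 1, which holds most of the control counts, it was 2.78 (adjusted p = 0.000104). The 4 adaptors were all lower at an adjusted p under 0.05, against 31.4% of all genes, and 0 of 4 with *GAPDH* as the scale. They comprise *DDB1* (-0.60), *ELOB* (-0.58), *ELOC* (-0.45) and *SKP1* (-0.41).

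The 3 partners of CUL7 split. *OBSL1*, a cytoskeletal adaptor, measured 60.3, 66.0 and 73.0 CPM with DMSO and 31.7, 32.2 and 26.9 CPM with mocetinostat, with no overlap. Its log2 fold change was -1.13 ± 0.14 (SE, adjusted p = 8.35e-11). *CCDC8* and the F-box protein *FBXW8* were higher, at 0.89 ± 0.21 (adjusted p = 0.000213) and 0.62 ± 0.19 (adjusted p = 0.00329). Of 9 E2 enzymes and ARIH ligases, 5 were lower and 3 higher at an adjusted p under 0.05, against 31.4% and 32.9% of all genes. Their median of -0.33 became 0.21 with *GAPDH* as the scale. Of 4 cullin and RBX homologs, *ANAPC2* of the anaphase-promoting complex was lower at -0.80 ± 0.14 (adjusted p = 5.88e-07) and *CACUL1* was higher at 0.55 ± 0.10 (adjusted p = 8.67e-07). *CUL9*, a cullin outside the set, was not lower, at 0.18 ± 0.15 (adjusted p = 0.285). Scaled to *GAPDH*, 0 of the 4 homologs were lower and 3 higher at an adjusted p under 0.05.

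**Figure D3:**
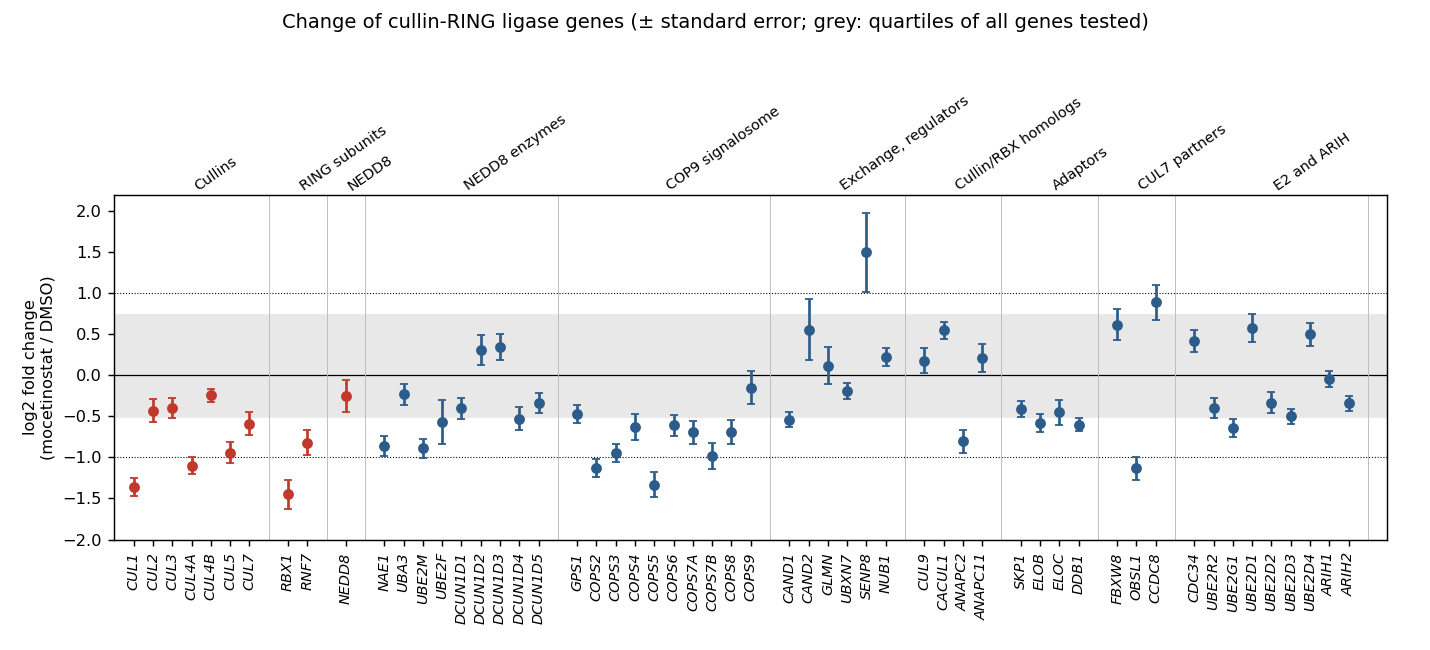
Log2 fold change (mocetinostat over DMSO) ± standard error of the 10 genes (red) and the 45 other machinery genes (blue), grouped by role. Dotted lines mark 1 log2 unit and the grey band runs between the quartiles of all genes, -0.51 and 0.74. Points of the 7 cullins in red and of COP9 subunits lie below 0, while CUL9, among the homologs, lies above 0. With GAPDH as the scale CUL2, CUL3, CUL4B and NEDD8 lie above 0 and the COP9 median is -0.15.

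Substrate receptors, which decide what a ligase binds, were mixed. Of 181 genes in 4 lists 142 were tested, with 58 lower and 32 higher at an adjusted p under 0.05, against 31.4% and 32.9% of all genes. Scaled to *GAPDH*, 15 were lower and 63 higher. Calls past 1 log2 unit numbered 10 lower and 13 higher, against 8.18% and 20.2% of all genes. The F-box list of CUL1 had 22 lower and 11 higher of 56, with a median of -0.23, and the BTB list of CUL3 had 10 lower and 15 higher of 36, with a median of 0.05. The DDB1-bound list of the CUL4 paralogs had 11 lower and 1 higher of 18, with a median of -0.43, and the elongin-bound list of CUL2 and CUL5 had 15 lower and 5 higher of 32, with a median of -0.35. With *GAPDH* as the scale these medians were 0.30, 0.58, 0.11 and 0.19, so the direction of 3 lists flipped.

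*KEAP1*, the CUL3 receptor for the antioxidant factor NRF2, measured 78.9, 73.3 and 78.8 CPM with DMSO and 27.2, 29.7 and 24 CPM with mocetinostat. Its log2 fold change of -1.52 ± 0.14 (SE, adjusted p = 7.55e-16) went with one of -0.40 for its scaffold. *FBXL19*, an F-box protein that binds CpG islands, measured 52.1, 69.8 and 78.3 CPM with DMSO and 16.3, 12.4 and 12 CPM with mocetinostat, a log2 fold change of -2.22 ± 0.17 (adjusted p = 2.4e-19). *DCAF1*, a DDB1-bound receptor, was lower at -1.17 ± 0.11 (adjusted p = 1.08e-14), and opposite-strand exons cover 19.18% of its exonic bases. In the other direction, *SOCS3*, a CUL5 receptor that restrains cytokine signalling, measured 15.9, 17.7 and 20.5 CPM with DMSO and 51.7, 52.1 and 71.7 CPM with mocetinostat. None of these groups overlapped. Its log2 fold change was 1.70 ± 0.16 (adjusted p = 1.87e-15). *FBXL16* (2.76 ± 0.26), *KLHL29* (2.38 ± 0.20) and *SPSB4* (2.09 ± 0.29) were called higher as well.

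**Figure D4:**
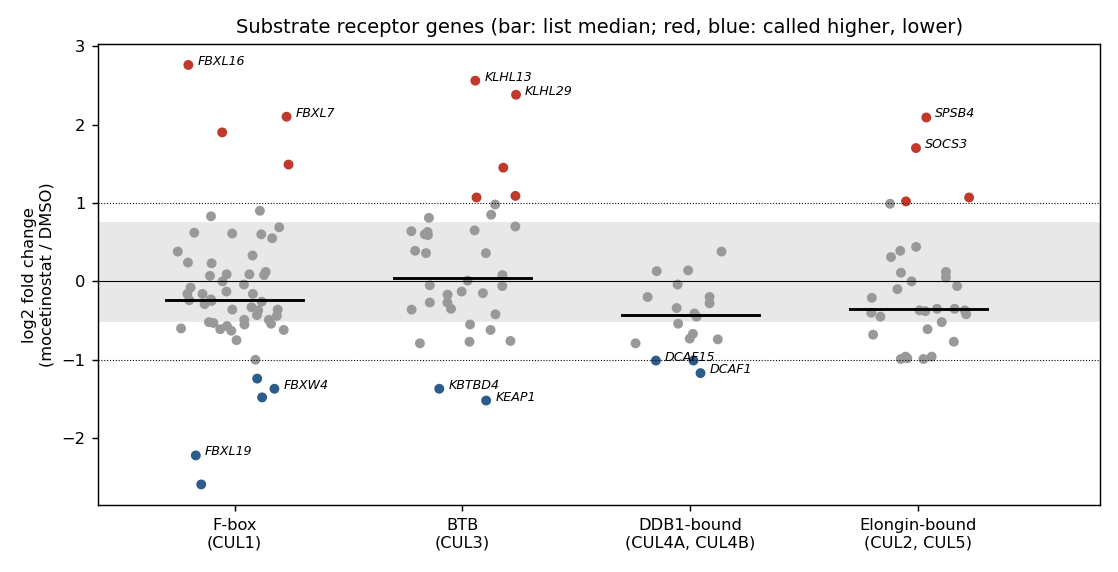
Log2 fold change of the 142 tested receptor genes (points) by the cullin they serve, with bars for list medians and the quartiles of all genes in grey. Red and blue points are the 13 genes called higher and the 10 called lower. The medians run from -0.43 to 0.05, and with GAPDH as the scale from 0.11 to 0.58.

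Scaling to *GAPDH* raised the value of each of the 10 genes, and dropping the filter lowered it. *CUL1* ranged from -1.61 to -0.83 and *CUL4A* from -1.35 to -0.57 over 14 alternatives. Both kept the call in 13 of 14, and lost it with *GAPDH* as the scale. *RBX1* ranged from -1.70 to -0.91.

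**Figure D5:**
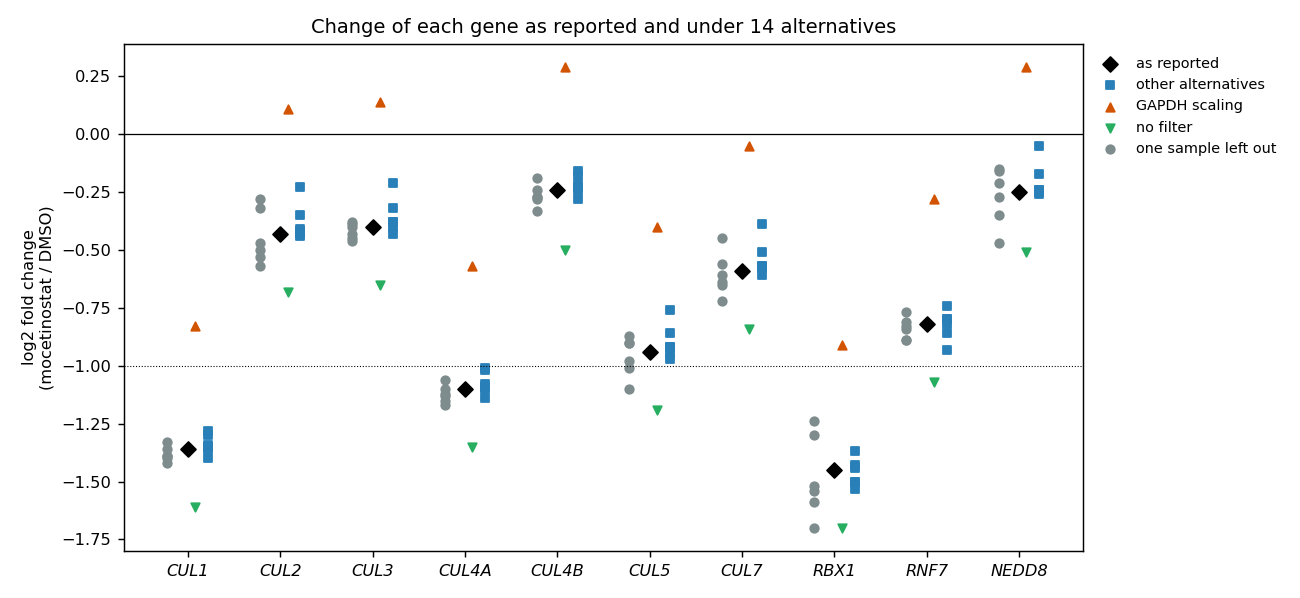
Log2 fold change of each gene as reported (diamonds) and under 14 alternatives. GAPDH scaling (triangles) moves every gene up, with CUL2, CUL3, CUL4B and NEDD8 above 0, and no filter (inverted triangles) moves every gene down.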

How the data were processed

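RNA was collected from TC28a2 cells, 3 samples per treatment. Per the study's methods, libraries were depleted of ribosomal sequences, reads were aligned with STAR version 2.6.1d to GRCh38, and genes were counted with featureCounts version 1.6.4. The deposited values are the authors' raw counts per gene, not normalized. Strand and multimapping settings were not given in the sources used here.

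Genes were tested with the quasi-likelihood test of edgeR version 4.0.16 (R version 4.3.3) after TMM normalization and filterByExpr with a minimum count of 10, which left 13966 genes. P values were adjusted by Benjamini-Hochberg over all of them. A call required an adjusted p below 0.05 together with a log2 fold change beyond 1 in either direction. Fold changes are mocetinostat over DMSO. The test was checked on simulated data, where 187 of the 193 tested genes changed by a log2 of 2 were recovered among 13966 genes. The simulation changed only 200 genes, each by more than any member moved, with the same dispersion for all genes. It therefore does not measure recovery of smaller changes, or of changes where many genes move. DESeq2 version 1.42.0, other scalings and filters, thinning to the smallest total, a replicate block and leaving out each sample were alternatives. Gene positions came from GENCODE 44, which held 99.5% of the identifiers, and promoters from RefSeq.

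The members and gene lists were chosen with earlier results of these data known. Receptors were named by the smallest adjusted p among called genes of each list, up to 2 per direction. Totals ranged from 1619344 to 11031132 counts, and reads are not independent molecules where no molecular identifiers were used. The edgeR p values set the treatment difference against the spread between these samples, with information on that spread shared across genes.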

Additional observations from a re-analysis of the deposited data

How the results depend on the processing

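With *GAPDH* as the scale the median of all genes moved by 0.54, and without a filter by -0.25 over the same genes, so calls move with the scale. Of the 9 genes other than *RBX1*, the 2 called lower became 0 with *GAPDH* and 4 without a filter. The 8 lower by adjusted p became 3 with *GAPDH* and 5 when thinned to the smallest total (*CUL2*, *CUL3* and *CUL4B* did not pass), and 1 (*CUL4B*) was higher with *GAPDH*. *CUL2* (0.11), *CUL3* (0.14) and *CUL4B* (0.29) reversed with *GAPDH*, and *CUL7* and *RNF7* no longer passed. Machinery calls of 3 lower became 0 with *GAPDH* and 8 without a filter, and that of 1 higher became 7 with *GAPDH*, and 0 when thinned or when 10 counts were required of each sample. Receptor calls of 10 lower became 2 with *GAPDH*, 21 without a filter and 5 with at least 10 counts, and those of 13 higher became 30 with *GAPDH*. Over all genes, 1142 called lower became 284 with *GAPDH*, 2120 without a filter and 704 with at least 10 counts, and 2827 called higher became 4425 with *GAPDH* and 1620 with at least 10 counts.

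Leaving out 1 sample at a time gave 2 to 3 called lower and 7 to 8 lower by adjusted p among the 9 genes, 3 to 5 lower (5 without DMSO replicate 3) and 0 to 1 higher machinery calls, 10 to 15 lower and 11 to 16 higher receptor calls, and a *CUL4A* to *CUL4B* difference between -0.95 and -0.77. Deviations from the group means did not show pairing by replicate number (r = 0.037, 0.024 and -0.042 for equal numbers). DMSO replicate 1 correlated best with mocetinostat replicate 3, at 0.061. With 3 samples per group, these values do not settle whether equal numbers shared an experiment. With a replicate block 2 of the 9 genes were called lower, 8 were lower by adjusted p, and 1133 and 2798 genes were called lower and higher over all genes, so the block changed no count by over 1.5 times.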
